A study of Mus musculus with 12 samples.

Results

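The genes described here encode protein kinase C isoforms (Prkca, Prkcb, Prkcd, Prkch and Prkcq), the serum and glucocorticoid regulated kinases Sgk1 and Sgk3, the RSK kinase Rps6ka1 and the S6 kinase Rps6kb1. They were chosen by name, and each gene was read from its brightest probe set, judged by the mean of all 12 arrays. Of the 9 genes, 7 had probe sets, 15 in all, among 18193 genes measured. Rps6ka1 and Rps6kb1 were carried by no probe set under the platform annotation used, and their transcripts were not analysed here.

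All cells were cytotoxic T lymphocytes (CTL) made from C57BL/6 spleen T cells with CD3 antibody and kept in IL-2 at 20 ng/ml for 5 days. Pdpk1-null CTL were of PDK1fl/fl TamoxCre genotype, with floxed alleles of Pdpk1 and a Cre recombinase that is expressed from the ROSA26 locus in all cells and acts once 4-hydroxytamoxifen (4OHT) is present, and were exposed to 0.6 µM of that drug for the last 72 h. Their controls, the Cre control CTL, carried TamoxCre without floxed alleles and received the same drug, so Cre activity and drug were shared. In a separate experiment, wild-type CTL received the Akt inhibitor AktI at 1 µM for the last 48 h, and the other part of the cells of each biological replicate was left without it. Each group had 3 arrays, named by the labels as biological replicates. The age and sex of the mice are not given in the sources used here.

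PDK1, encoded by Pdpk1, phosphorylates the activation loop of many kinases of the AGC family, among them Akt, the protein kinase C isoforms, the SGK kinases, the S6 kinases and the RSK kinases. In T cells PKC-theta, the product of Prkcq, relays antigen receptor signals to NF-kappa B at the contact with the target cell, and the conventional isoforms encoded by Prkca and Prkcb need calcium and diacylglycerol. SGK kinases resemble Akt in the substrates they phosphorylate, including Foxo transcription factors. The arrays measure the mRNA of these kinases, not their phosphorylation or activity. They therefore addressed whether the transcripts of kinases that lie beside or below PDK1 differed when PDK1 was deleted or when Akt alone was inhibited.

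The promoters of Prkca and Prkcb are shown because these were the members whose mRNA passed a test. The bases lie directly upstream of the gene as RefSeq places it on mouse build GRCm38.p6, from 5′ to 3′ on the strand of the gene. Capitals mark GGGCGG or its reverse complement CCGCCC, the core of the GC box bound by Sp and Klf factors, and, in Prkcb, the octamer ATGCAAAT bound by POU factors.
Prkca, chr11:108343889-108344138, minus strand: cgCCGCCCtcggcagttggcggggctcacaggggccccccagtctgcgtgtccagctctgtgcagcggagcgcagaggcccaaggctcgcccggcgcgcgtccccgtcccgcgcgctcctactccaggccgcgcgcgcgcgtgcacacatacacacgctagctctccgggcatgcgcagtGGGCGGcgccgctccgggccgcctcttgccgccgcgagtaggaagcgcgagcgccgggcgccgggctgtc
Prkcb, chr7:122288875-122289103, plus strand: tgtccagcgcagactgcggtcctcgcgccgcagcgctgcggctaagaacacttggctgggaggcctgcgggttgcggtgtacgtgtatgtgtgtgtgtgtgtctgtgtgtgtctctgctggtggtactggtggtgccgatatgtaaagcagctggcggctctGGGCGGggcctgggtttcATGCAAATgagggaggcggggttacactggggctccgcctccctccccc
The stretches are 250 bases with 76.8% G or C for Prkca and 229 bases with 63.8% for Prkcb. Of the 9 listed genes 7 matched the RefSeq promoter table, all but Prkch and Sgk3. Of their 15 promoters, counted over the 250 bases before each start and on both strands, 7 held a GC box, against 32.7% of all 32851 promoters in the table. The octamer stood in 1 of the 15, that of Prkcb, and in 1.60% of all promoters, and it was searched for after the sequence had been seen. The motif GTAAACA (reverse complement TGTTTAC), a core bound by Foxo and other forkhead factors, was in none of the 15 windows and in 3.17% of all promoters. A match is a run of letters and not a shown binding site, and no binding data belong to this series.

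Signals are log2 values from robust multichip averaging. The level that unexpressed genes reach on these arrays was set from 71 probe sets for vomeronasal and olfactory receptors, at their 95th percentile, which was 4.47 in the Pdpk1 experiment and 5.07 for the Akt arrays. All 7 measured genes were above it in all 4 groups, by 2.04 or more. The median per array was 4.61 to 4.63 for the Pdpk1 arrays and 5.10 to 5.14 for the Akt arrays, so levels are not compared between experiments. Arrays of a group correlated at 0.996 to 0.998. All 10 T cell markers measured, Cd8a among those listed, were above background in every group. Not all were level between groups. Cd2 differed by 0.67 in Pdpk1-null CTL (limma adjusted p = 0.0151), and Prf1 by −2.20 with AktI (adjusted p = 0.000164). The log2 of their summed signal was 15.12 to 15.21 in Pdpk1-null and 15.20 to 15.26 in Cre control CTL. It was 15.63 to 15.69 with AktI, against 15.80 to 15.88 without. Pdpk1 itself was read from its brightest probe set alone. Its mRNA was 9.03 ± 0.07 in Pdpk1-null CTL and 8.98 ± 0.04 in Cre control CTL (SD, n = 3 each), a difference of 0.05 (limma, adjusted p = 0.822). Whether its probe set lies in the deleted part is not given in the sources used here, so this value does not check the labels.

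**Figure D1:**
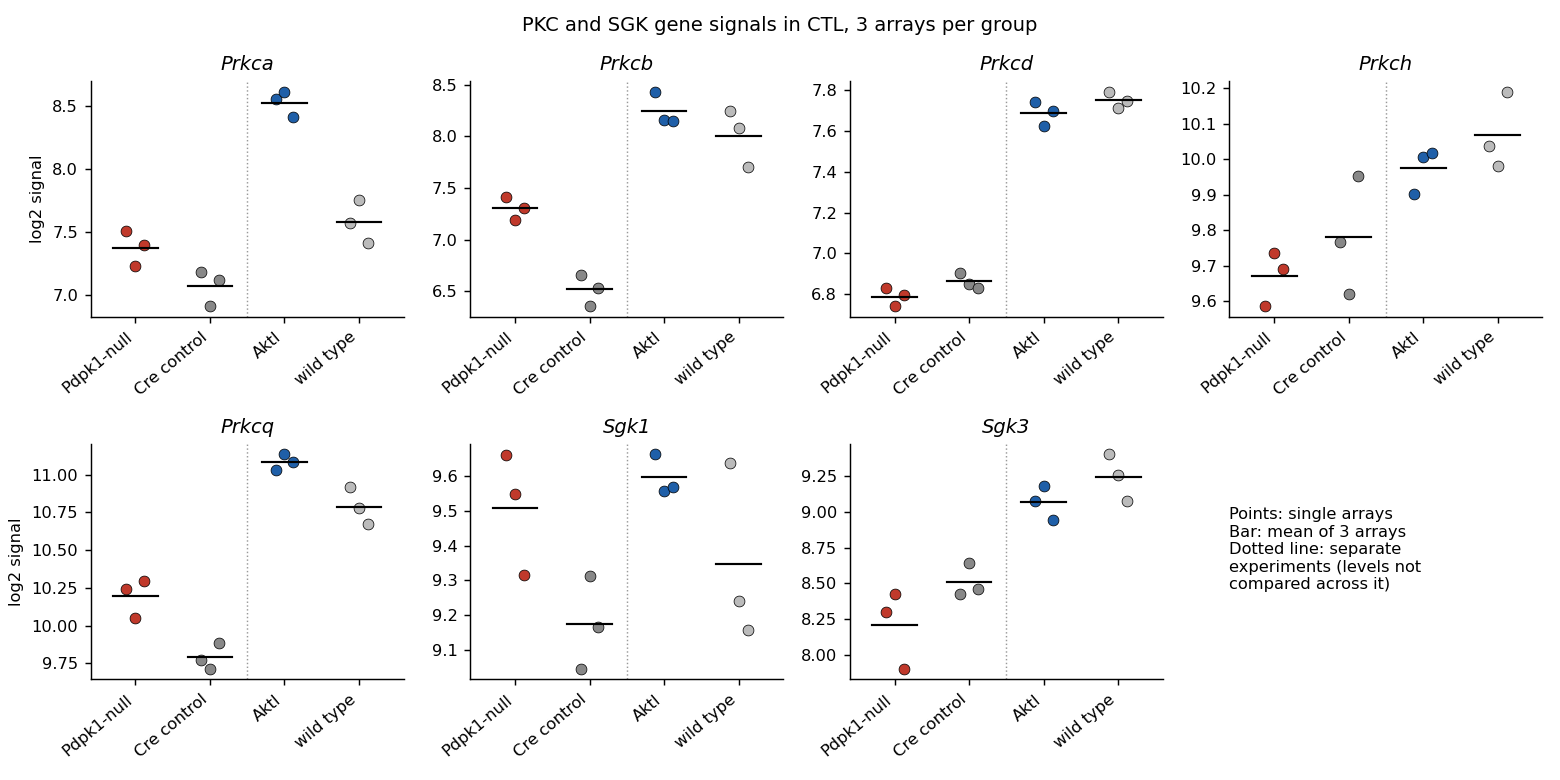
Log2 signal (vertical axis, 1 scale per gene) of the brightest probe set of the 7 measured genes on each array, in Pdpk1-null, Cre control, AktI and wild-type CTL, with the mean of 3 arrays as a bar. For Prkcb the 3 Pdpk1-null arrays lay above the 3 Cre control arrays, and for Prkca the 3 AktI arrays lay above the 3 wild-type arrays.

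Prkcb, the gene of PKC-beta, was higher after deletion of Pdpk1. Its signal was 7.42, 7.19 and 7.31 in Pdpk1-null CTL, against 6.66, 6.36 and 6.53 in Cre control CTL. Every Pdpk1-null array stood above every control array, and the gap between the groups was larger than the spread within either. The difference was 0.79 on the log2 scale (SE 0.0973, 95% interval 0.57 to 1.01, 1.73-fold, limma adjusted p = 0.00901). A change is said here to pass, or a gene to have risen or fallen, at an adjusted p under 0.05, by Benjamini-Hochberg over all probe sets tested, together with at least 1.5-fold.

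Under AktI, Prkcb gave 8.43, 8.16 and 8.15, against 8.24, 8.08 and 7.70 in wild-type CTL. The groups overlapped, because the first wild-type array was above 2 of the AktI arrays. The difference of 0.24 (SE 0.139, interval −0.08 to 0.56, limma adjusted p = 0.439) did not pass, although within each of the 3 biological replicates the AktI culture was the higher, by 0.19, 0.08 and 0.45. The Pdpk1 effect exceeded the AktI effect by 0.55 (SE 0.184, interval 0.15 to 0.94), a difference that also did not pass (adjusted p = 0.287).

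A second Prkcb probe set gave the same picture at a dimmer signal. It was higher by 0.66 in Pdpk1-null CTL (limma adjusted p = 0.00400), and its AktI effect of 0.18 did not pass (adjusted p = 0.541). The last probe set of the gene was below background, with means of 2.93 in Pdpk1-null and 3.01 in Cre control CTL, and so says little about the transcript. The Prkcb locus lies on chromosome 7 from 122289104 to 122634402.

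Prkca, the gene of the conventional isoform PKC-alpha, was higher with AktI. Its signal was 8.56, 8.61 and 8.41 in AktI-treated CTL, against 7.57, 7.75 and 7.41 in wild-type CTL. The groups were far apart, and within the biological replicates the differences were 0.99, 0.86 and 1.00. The mean difference was 0.95 (SE 0.0989, interval 0.72 to 1.17, 1.93-fold, limma adjusted p = 0.00126).

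In Pdpk1-null CTL the Prkca signal was 7.50, 7.23 and 7.39, against 7.18, 6.91 and 7.11 in Cre control CTL. The Pdpk1-null arrays were again all above the controls, but the difference of 0.31 (SE 0.1, interval 0.08 to 0.54, limma adjusted p = 0.187) did not pass. The Pdpk1 effect was smaller than the AktI effect by 0.64 on the log2 scale (SE 0.148, interval of the difference −0.96 to −0.32, adjusted p = 0.0995). With the replicate number as a block the difference passed, at an adjusted p of 0.0266. That block also paired the Pdpk1-null and Cre control arrays, which share only a number, so this pass carries little weight.

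The probe sets of Prkca did not move by like amounts. The second changed by −0.10 in Pdpk1-null CTL (limma adjusted p = 0.569) and by 0.36 with AktI (adjusted p = 0.0168, under the fold minimum). Its effects differed by −0.46 (adjusted p = 0.0428, also under the fold minimum). The dimmest gave 0.01 after deletion of Pdpk1 and 0.23 under AktI, with limma adjusted p-values of 0.972 and 0.148. Its effects differed by −0.22 (adjusted p = 0.544). All had higher means with AktI than without, but the brightest alone exceeded 1.5-fold, and none passed in Pdpk1-null CTL. The locus of Prkca is on chromosome 11 from 107933387 to 108343888.

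**Figure D2:**
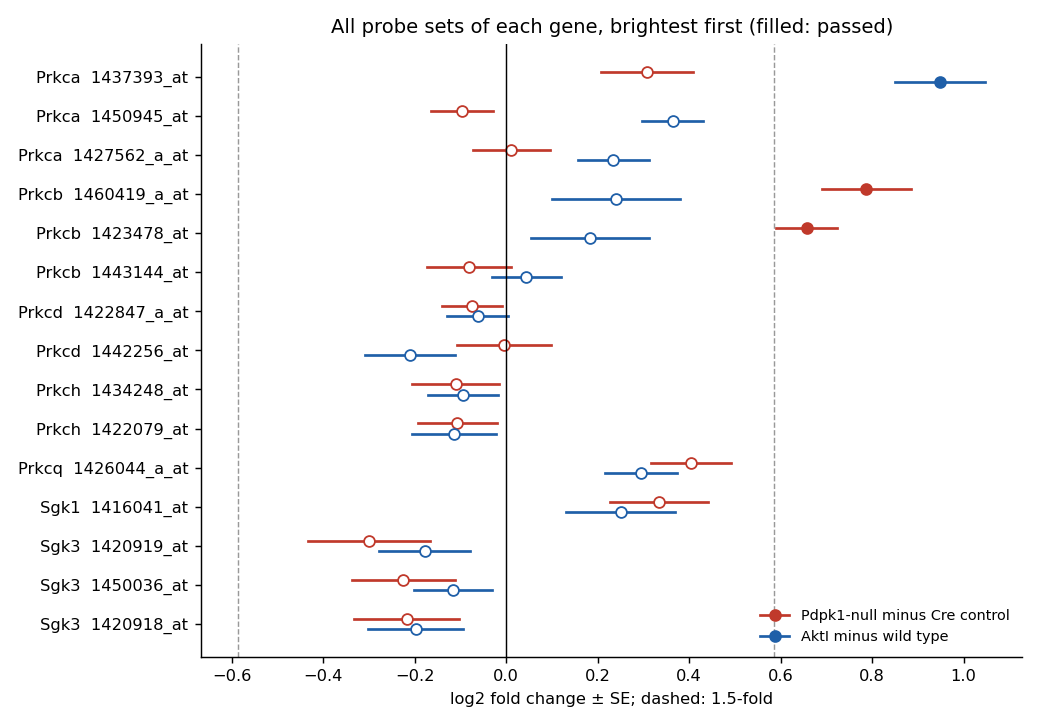
Log2 fold change (horizontal axis) with its standard error for each of the 15 probe sets, brightest first within a gene, for Pdpk1-null minus Cre control and AktI minus wild type (filled, passed; dashed lines, 1.5-fold). Both bright Prkcb probe sets passed after Pdpk1 deletion, and 1 of the 3 Prkca probe sets passed with AktI.

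Markers of other cell types were read beside these genes, since other blood cells also express protein kinase C isoforms. Of 9 B cell markers measured, 3 were above background in Pdpk1-null and 3 in Cre control CTL, and 4 in AktI-treated and 4 in wild-type CTL. Those above it were Cd79b, Cd22 and Pax5 in all groups and Cd79a in the Akt experiment, while Ms4a1, Ebf1, Blnk, Cr2 and Fcer2a were below it throughout. Cd79b, a subunit of the B cell receptor, had higher means in both comparisons, by 0.19 in Pdpk1-null CTL (limma adjusted p = 0.293), with every Pdpk1-null array above every control, and by 0.34 with AktI (adjusted p = 0.0721), higher in all 3 biological replicates. The log2 of the summed signal of the 9 markers was 7.52 to 7.59 in Pdpk1-null and 7.49 to 7.60 in Cre control CTL, and 8.19 to 8.27 with AktI against 8.11 to 8.24 without, and none passed in either comparison.

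The summed myeloid signal, over 10 markers, was 8.96 to 9.06 in Pdpk1-null and 8.70 to 8.92 in Cre control CTL, where 6 and 5 markers were above background. Of these markers Fcgr3, an Fc receptor, rose by 0.91 in Pdpk1-null CTL (limma adjusted p = 0.0486), and was the one to pass. Tyrobp, a signaling adaptor, differed by −0.53 (adjusted p = 0.139). With AktI the myeloid sum was 8.77 to 8.80 with 4 markers above background, against 9.11 to 9.32 and 5 markers in wild-type CTL, and Cd68 and Mpeg1, macrophage genes, fell by 1.30 and 0.72 (limma adjusted p = 0.00563 and 0.00355). The Mpeg1 mean with AktI, 4.71, was below the background of 5.07, so the size of its fall is uncertain. In that experiment Tyrobp differed by −0.44 and Fcgr3 by 0.38 (adjusted p = 0.0524 and 0.150). The myeloid sum was thus higher beside the higher Prkcb in the Pdpk1 experiment and lower beside the higher Prkca in the Akt experiment, with members going both ways in each. Of 5 basophil and mast cell markers, whose sum was 8.11 to 8.66 in Pdpk1-null and 8.01 to 8.74 in Cre control CTL with 3 above background in each, none passed. With AktI that sum was 6.69 to 6.93, against 6.89 to 7.42 in wild-type CTL, and Mcpt8, a basophil protease gene, fell by 1.09 (limma adjusted p = 0.0465). Its mean with AktI, 4.87, was likewise below background. Of 3 CD4 T cell markers, Cd4 and Zbtb7b were above background in all groups. The sum was 7.49 to 7.66 in Pdpk1-null and 7.54 to 7.66 in Cre control CTL. With AktI it was lower without overlap, at 7.897 to 7.937 against 7.9997 to 8.0297. Of 3 NK cell markers Eomes alone was above background. The sum of that list is thus in effect the Eomes signal and says little about NK cells. It was 9.83 to 10.02 in Pdpk1-null and 9.88 to 10.03 in Cre control CTL. With AktI it was 11.44 to 11.54, against 11.87 to 11.99 without. Eomes itself differed by −0.44 with AktI (limma adjusted p = 0.00883, under 1.5-fold). No marker of either list passed. The part of all these cells in the Prkcb and Prkca results was not tested. In bulk RNA, fewer cells of a type and less RNA per cell cannot be told apart.

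Prkcq, whose product PKC-theta is the main isoform at the T cell synapse, had 10.24, 10.05 and 10.30 in Pdpk1-null CTL, against 9.77, 9.72 and 9.89 in Cre control CTL. With AktI it had 11.03, 11.13 and 11.08, against 10.92, 10.78 and 10.67 in wild-type CTL. In both experiments all 3 arrays of the perturbed CTL were above all 3 of their controls. The differences were 0.40 (SE 0.0871, interval 0.21 to 0.60, limma adjusted p = 0.0622) and 0.29 (SE 0.0794, interval 0.11 to 0.48, adjusted p = 0.0788), and neither passed. Their intervals leave room for 1.5-fold in Pdpk1-null CTL only. The effects differed from each other by 0.11 (interval −0.15 to 0.37, adjusted p = 0.82).

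The other PKC genes gave small differences in both experiments. Prkcd, which encodes PKC-delta, had 6.83, 6.74 and 6.79 in Pdpk1-null CTL, against 6.90, 6.85 and 6.83 in Cre control CTL, a difference of −0.07 (interval −0.22 to 0.08), with every Pdpk1-null array at or just below the lowest control. With AktI it had 7.74, 7.62 and 7.70, against 7.79, 7.71 and 7.75 in wild-type CTL, a difference of −0.06 (interval −0.21 to 0.09). Both intervals lie well inside 1.5-fold.

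Prkch, the gene of the isoform PKC-eta, which needs diacylglycerol but not calcium, had 9.59, 9.74 and 9.69 in Pdpk1-null CTL, against 9.77, 9.62 and 9.95 in Cre control CTL, and the groups overlapped. Its values with AktI were 9.90, 10.01 and 10.02, against 10.04, 9.98 and 10.19 in wild-type CTL, again with overlap. The differences were −0.11 (interval −0.33 to 0.11, limma adjusted p = 0.662) and −0.09 (interval −0.27 to 0.08, adjusted p = 0.609). A second Prkch probe set gave −0.11 in both comparisons.

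Of the SGK kinases, Sgk1, whose mRNA is induced by serum and glucocorticoids, had 9.66, 9.55 and 9.31 in Pdpk1-null CTL, against 9.05, 9.31 and 9.16 in Cre control CTL. The lowest Pdpk1-null array and the highest control array were almost level. With AktI it had 9.66, 9.56 and 9.57, against 9.64, 9.24 and 9.16 in wild-type CTL, where the first wild-type array was as high as the treated ones. The differences of 0.33 (SE 0.107, interval 0.09 to 0.58, limma adjusted p = 0.183) and 0.25 (SE 0.12, interval −0.02 to 0.52, adjusted p = 0.331) did not pass. Without that first wild-type array the AktI difference was 0.40, with an adjusted p of 0.0394, still under 1.5-fold.

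Sgk3, whose product is brought to endosomes by a lipid-binding domain, had 8.30, 8.43 and 7.91 in Pdpk1-null CTL, against 8.43, 8.64 and 8.46 in Cre control CTL. It had 9.07, 9.18 and 8.94 with AktI, against 9.40, 9.26 and 9.07 in wild-type CTL. The differences were −0.30 (SE 0.133, interval −0.60 to 0.00, limma adjusted p = 0.334) and −0.18 (SE 0.0997, interval −0.41 to 0.05, adjusted p = 0.421). All 3 probe sets of Sgk3 had lower means in the perturbed CTL of both experiments, by 0.12 to 0.30, and none passed.

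Counted together, 1 of the 7 measured genes passed in Pdpk1-null CTL, Prkcb, and none was lower, where 1.36% of all genes passed in either direction and 1.01% were higher. Groups did not overlap for 5 of the 7, where this held for 24.7% of all genes. The median difference of the 7 was 0.31, against −0.01 over all genes. With AktI 1 of the 7 passed, Prkca, where 2.53% of all genes passed and 1.51% were higher. Here groups did not overlap for 2 of 7, against 27.4% of all genes, and the median was 0.24, against −0.02 over all genes. With so few genes these counts describe the list and set it apart from nothing.

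For the difference of the effects, limma passed 0 of 7, where 0.522% of all genes passed. At an unadjusted p under 0.05 the Prkcb difference was positive and that of Prkca negative, where 11.1% of all genes reached that level. The 4 genes with higher means (Prkca, Prkcb, Prkcq and Sgk1) and the 3 with lower means were the same in both. The intervals of those 3 held 0 in both comparisons, as did those of Prkcb and Sgk1 with AktI. For Prkca, the second probe set gave −0.10 in Pdpk1-null CTL. The share of all genes with 1 sign in both experiments was not counted, so this is no trait of the list.

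**Figure D3:**
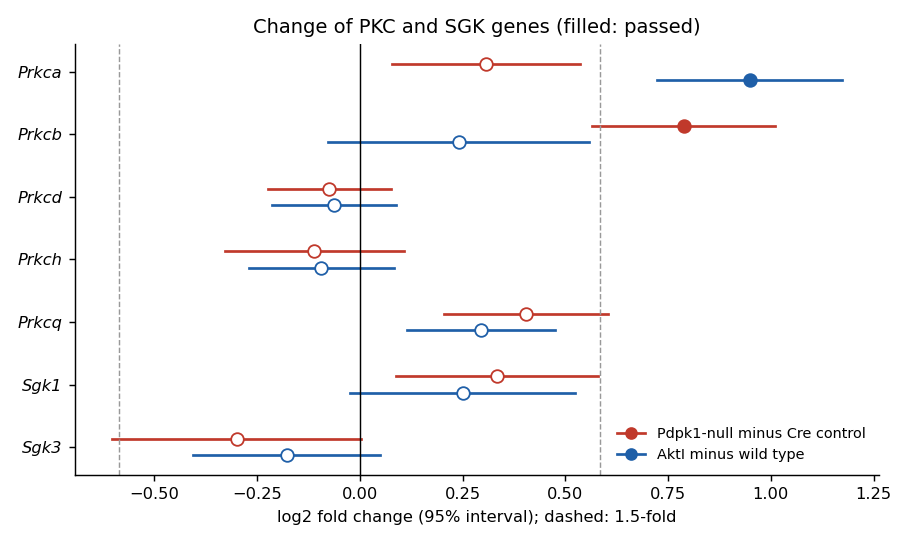
Log2 fold change (horizontal axis) with its 95% interval for the 7 measured genes, Pdpk1-null minus Cre control and AktI minus wild type, with filled points for changes that passed and dashed lines at 1.5-fold. Prkcb at 0.79 passed after Pdpk1 deletion and Prkca at 0.95 passed with AktI, and the means of all 7 lay on the same side of 0 in both experiments. The intervals of Prkcd, Prkch and Sgk3 held 0 in both.

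Over the 12 arrays, each centred on its experiment, Prkcb and Prkcq varied together with a Pearson r of 0.87, and Prkca and Prkcq with 0.77. The points share the 4 groups and the arrays, so these values hold the group differences. Among 11298 genes above background, those most like Prkca were Sesn1 (r = 0.982), Rabgap1l (0.982) and Slc30a4 (0.981). Sesn1 encodes a sestrin, a stress protein that restrains mTORC1. Those most like Prkcb were Ms4a4c (0.971), Klf6 (0.964), a zinc finger transcription factor, and Pisd-ps3 (0.963). All these genes had higher means in both Pdpk1-null and AktI-treated CTL, Ms4a4c by 1.18 and 0.40 and Sesn1 by 0.31 and 0.79. They were picked by an r that holds the group differences, so these directions follow largely from the choice.

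Over 11 pathway lists the median difference ran from −0.08 to 0.33 in Pdpk1-null CTL and from −0.14 to 0.20 with AktI, against −0.01 and −0.02 over all genes, the value of 0.33 being that of a list with 1 measured gene, Rps6ka5. Single members of these lists went further than the medians. Of 8 PKC genes measured, Prkcb in Pdpk1-null CTL and Prkca with AktI were those that passed. Prkce, encoding PKC-epsilon, differed by 0.11 in Pdpk1-null CTL and by 0.49 with AktI (limma adjusted p = 0.0188, under 1.5-fold), and Prkcz, an atypical isoform, by 0.32 and 0.09. None of 10 other kinase genes of the AGC family passed in either comparison. The largest difference in Pdpk1-null CTL was that of Prkacb, a catalytic subunit of protein kinase A, at 0.29 (0.17 with AktI). The largest with AktI was that of Rps6ka3, which encodes RSK2, at 0.29 (0.17 in Pdpk1-null CTL).

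The kinases that act on this family were also examined. None of 12 genes of the mTOR complexes passed. Rictor, the core subunit of mTORC2 that phosphorylates the hydrophobic motif of Akt, SGK and PKC, differed by 0.43 in Pdpk1-null CTL and by 0.47 with AktI (limma adjusted p = 0.0779 and 0.00532), below the fold minimum. Prr5, another mTORC2 subunit, differed by −0.54 in Pdpk1-null CTL (adjusted p = 0.0226, under 1.5-fold), and it was below background in both groups of the Akt experiment. None of 4 measured genes of the ERK module, which activates RSK, passed, and Map2k1, the gene of MEK1, differed by −0.26 and −0.37. The MSK gene Rps6ka5 differed by 0.33 (adjusted p = 0.298) and 0.10. Another probe set of it was higher by 0.61 in Pdpk1-null CTL (adjusted p = 0.0339).

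Genes that set the supply of diacylglycerol, the lipid that activates conventional PKC, or belong to the RasGRP family gave the largest changes among the pathway lists. Of 14 measured, 2 rose in both comparisons and none fell, with medians over the list of −0.01 in Pdpk1-null CTL and 0.11 with AktI. The share of all genes that rose in both was not counted. Dgka, the kinase that converts diacylglycerol to phosphatidic acid, had 10.6, 10.2 and 10.7 in Pdpk1-null CTL, against 9.38, 9.11 and 9.45 in Cre control CTL. With AktI it had 11.4, 11.3 and 11.2, against 10.0, 9.82 and 9.76 in wild-type CTL. The groups were apart by more than 1 log2 unit on average, with differences of 1.22 (SE 0.138, limma adjusted p = 0.00689) and 1.44 (SE 0.084, adjusted p = 0.000105).

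Rasgrp2, a calcium-regulated exchange factor of the RasGRP family that loads Rap with GTP, had 8.14, 7.67 and 7.79 in Pdpk1-null CTL, against 7.09, 6.68 and 6.98 in Cre control CTL. With AktI it had 9.69, 9.86 and 9.57, against 8.01, 8.33 and 8.12 in wild-type CTL. It was higher by 0.95 (SE 0.142, limma adjusted p = 0.0186) and 1.55 (SE 0.105, adjusted p = 0.000167). The first call was lost without Pdpk1-null array 3 or Cre control array 2 or 3, with adjusted p-values of 0.0632 to 0.0733. The effects differed by −0.60 (adjusted p = 0.253).

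**Figure D4:**
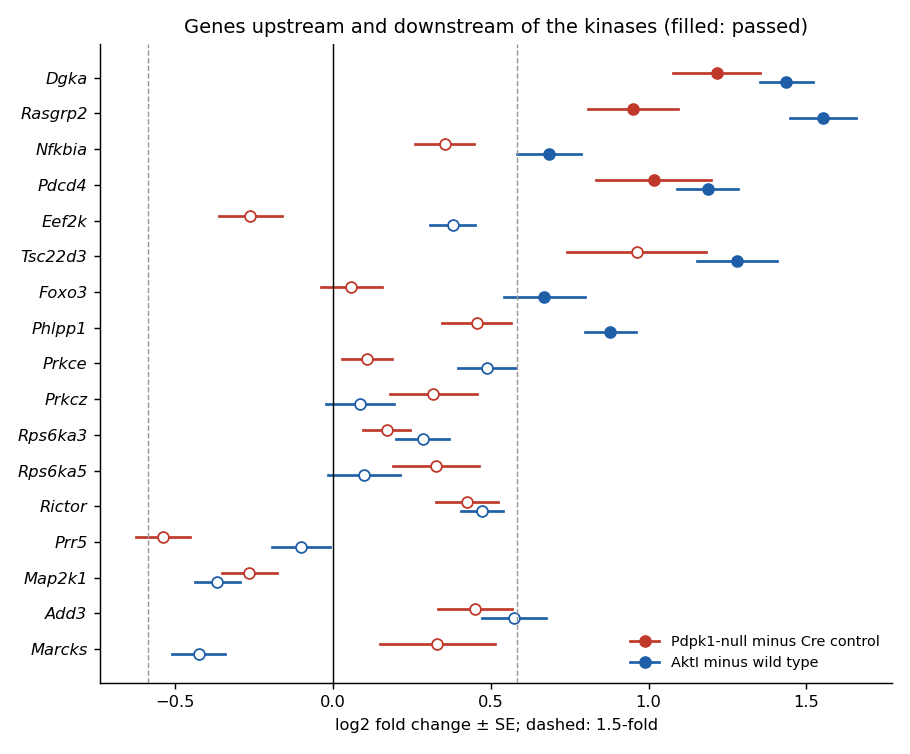
Log2 fold change (horizontal axis) with its standard error for 17 named genes of the pathway lists, Pdpk1-null minus Cre control and AktI minus wild type (filled for passed, dashed lines at 1.5-fold). They are genes upstream and downstream of the kinases and related kinases (Prkce, Prkcz, Rps6ka3 and Rps6ka5). Dgka, Rasgrp2 and Pdcd4 passed in both comparisons, Eef2k lay at −0.26 in Pdpk1-null CTL and at 0.38 with AktI, and the AktI point of Prr5 is from signals below background.

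Downstream of PKC-theta, Nfkbia, the inhibitor that holds NF-kappa B in the cytoplasm and is itself an NF-kappa B target, was the one of 9 genes to pass. It rose by 0.68 with AktI (SE 0.101, limma adjusted p = 0.00657), and its difference in Pdpk1-null CTL was 0.35 (adjusted p = 0.114). Without wild-type array 3 the AktI difference was 0.58, just under the fold minimum. None of 8 PKC partners and substrates passed. Add3, an adducin, differed by 0.45 and 0.57 (adjusted p = 0.109 and 0.0146), and passed without AktI array 3 or wild-type array 1 or 2. Marcks, the classic membrane-bound PKC substrate, differed by 0.33 in Pdpk1-null CTL and −0.42 with AktI (adjusted p = 0.453 and 0.0231), and the difference of 0.76 between these effects did not pass (adjusted p = 0.205).

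Of 11 genes for substrates of the S6 and RSK kinases, 1 passed in each comparison, and it was Pdcd4 in both. Its product restrains the helicase eIF4A until an S6 kinase marks it for degradation. Its signal was 11.0, 10.3 and 10.8 in Pdpk1-null CTL, against 9.97, 9.52 and 9.65 in Cre control CTL. With AktI it was 10.9, 10.9 and 10.8, against 9.76, 9.86 and 9.50 in wild-type CTL. The differences were 1.02 (SE 0.182, limma adjusted p = 0.0343) and 1.19 (SE 0.0963, adjusted p = 0.000364). The Pdpk1 call was lost when any array other than Pdpk1-null array 2 was left out, with adjusted p-values of 0.0573 to 0.133.

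Among 8 genes that SGK kinases act on or that act on Sgk1, 2 rose with AktI and none passed in Pdpk1-null CTL. Tsc22d3, the glucocorticoid-induced leucine zipper gene, had 8.29, 8.57 and 8.44 with AktI, against 7.29, 7.30 and 6.86 in wild-type CTL, a difference of 1.28 (SE 0.127, limma adjusted p = 0.00100). In Pdpk1-null CTL it had 7.20, 6.59 and 7.55, against 6.41, 6.00 and 6.04 in Cre control CTL, a difference of 0.96 with a wide error (SE 0.22, adjusted p = 0.0758). Foxo3, a transcription factor that Akt and SGK exclude from the nucleus, rose by 0.67 with AktI (SE 0.128, adjusted p = 0.0212) and differed by 0.06 in Pdpk1-null CTL (adjusted p = 0.843). The Foxo3 call was lost without AktI array 2 or 3 or wild-type array 1 or 3, at adjusted p-values of 0.064 to 0.075, and the difference of its effects, −0.61, did not pass (adjusted p = 0.191).

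Of 8 genes for phosphatases and chaperones of these kinases, Phlpp1 alone passed. Its product removes the hydrophobic motif phosphate from Akt and PKC. It had 7.49, 7.66 and 7.50 with AktI, against 6.78, 6.65 and 6.58 in wild-type CTL, a difference of 0.88 (SE 0.0807, limma adjusted p = 0.000666). In Pdpk1-null CTL it had 7.10, 6.83 and 7.24, against 6.59, 6.51 and 6.69 in Cre control CTL, a difference of 0.46 that did not pass (adjusted p = 0.0866).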

How the data were processed

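The mRNA of CTL was measured with 12 Affymetrix mouse arrays in 4 groups of 3. The deposited log2 signals were made by the authors with the robust multichip average of Affymetrix Expression Console 1.1, and were used as deposited. Gene names came from the platform annotation. The arrays hold 45101 probe sets. Without 64 array controls, 45037 entered the tests, of which 34945 name 1 gene, 932 several and 9160 none. Each comparison was fitted on its own 6 arrays with lmFit and eBayes (limma 3.58.1, R 4.3.3), with Benjamini-Hochberg adjustment over all tested probe sets. Effects were set against each other as the interaction of a fit to all 12 arrays with 4 group means. The small number of arrays limits precision, and an exact permutation of 3 against 3 arrays allows no two-sided p below 0.1. For AktI the treatment protocol splits the cells of each biological replicate, so arrays of a number share their origin, while the Pdpk1 replicates share only a number. Deviations from the group mean correlated at r of 0.0343 to 0.170 for arrays of the same origin and at −0.102 to 0.0383 for others. The ranges overlapped, so not every pair stood out. The named genes are the members, Pdpk1, the members of the pathway lists that passed (at most 4 a list, or the 2 with the largest change where none did) and the 3 genes most like each member that passed. Members and lists were chosen with earlier results of these data known. The alternatives were other limma settings, SAM, other normalizations, filters, fold minimums and probe set rules, the replicate block and leaving out each array. The fit was tested on simulated data.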

Additional observations from a re-analysis of the deposited data

Results flagged for a closer look

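Eef2k, the kinase that inactivates elongation factor 2 and is itself a substrate of S6 kinase and RSK, was singled out because its effects in the experiments differed by test. Its signal was 6.52, 6.71 and 6.50 in Pdpk1-null CTL, against 6.70, 6.80 and 7.02 in Cre control CTL, and 7.01, 7.14 and 7.05 with AktI, against 6.75, 6.70 and 6.61 in wild-type CTL. The effects were −0.26 (limma adjusted p = 0.262) and 0.38 (adjusted p = 0.0187), neither reaching 1.5-fold. The interaction was −0.64 (SE 0.125, adjusted p = 0.0452). It was lost in 10 of the 12 fits that left out 1 array, all but those without Pdpk1-null array 2 or Cre control array 1, with adjusted p-values of up to 0.135. It was also lost with the replicate block (adjusted p = 0.0945) and with the mean of all probe sets (−0.33, adjusted p = 0.156).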

How the results depend on the processing

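Of 385 values of the measured members under alternative settings, 366 kept their direction and side of the threshold. Most of these belong to differences that did not pass in the main fit, so the count says little about the Prkcb and Prkca calls. Prkcb in Pdpk1-null CTL ranged over 0.71 to 0.86 (adjusted p = 0.0106 to 0.0475) and Prkca with AktI over 0.87 to 1.04 (adjusted p = 0.00218 to 0.0092) when 1 array was left out, and both passed each time. The count of members that passed was 0 in each comparison with a 2-fold minimum and 0 in each with a gene's probe sets averaged, where Prkcb gave 0.45 and Prkca 0.52. The count for the difference of the effects was 1, Prkca, with trend and robust settings (adjusted p = 0.0302) and with the replicate block (adjusted p = 0.0266). With the block, Prkcb in Pdpk1-null CTL had an adjusted p of 0.00902 and Prkca with AktI 0.00154, so that pairing changed no other member's call. The Pdpk1 numbers are no shared origin, and their same-number correlations were −0.011 to 0.0496, against −0.074 to 0.041 for other numbers. Prkcq reached an adjusted p under 0.05, still under 1.5-fold, with trend and robust settings (0.0148 in Pdpk1-null CTL and 0.00967 with AktI), without dim probe sets (0.0366 and 0.0323) and with the mean of probe sets (0.0371 and 0.0445), and in Pdpk1-null CTL also with 1 model over all arrays (0.0161) and without Pdpk1-null array 2 (0.0333). The sign turned for differences of the effects near 0 that never passed: Prkcd gave 0.00351 with quantile normalization, 0.0971 with the mean of probe sets and 0.206 with any probe set. With arrays left out Prkcd ran from −0.0442 to 0.0155, Prkch from −0.0962 to 0.0707, Sgk1 from −0.0625 to 0.181 and Sgk3 from −0.23 to 0.0301. Over all genes, 248 passed in Pdpk1-null CTL (328 without Pdpk1-null array 2, 98 to 139 without any other array, 432 with no fold minimum, 76 with a 2-fold minimum), 461 with AktI (411 to 477 with an array left out, 1199 with no fold minimum, 151 with a 2-fold minimum) and 95 for the difference (53 to 124 with an array left out, 53 to 60 of these without Cre control array 1 or 3, AktI array 1 or 2 or wild-type array 1, and 38 with a 2-fold minimum). Of 378 values of the other named genes, 31 lost their call and 10 gained one, and 0 changed sign. The causes were not tested.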
